A study of Mus musculus with 24 samples.

Results

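The genes examined here encode the adhesion receptors of megakaryocytes and platelets and their main ligand: the integrin subunits Itga2b and Itgb3, the subunits Gp1ba, Gp1bb, Gp9 and Gp5 of the glycoprotein Ib-IX-V complex, the collagen receptor Gp6 and von Willebrand factor (Vwf). They are 8 of the 55487 genes counted, grouped by their known roles but chosen with earlier results of these data known. Their RNA was read in 24 sequencing libraries from mouse hematopoietic stem cells (HSCs), the rare marrow cells from which every kind of blood cell descends. The series has 3 experiments. Cells overexpressing PUS10, a pseudouridine synthase that isomerises uridine in RNA (PUS10-OE, n = 3), were compared with cells carrying the vector (Vector, n = 3). Knockdown of miR-139, a microRNA (miR139-KD, n = 6), was set against a control that targets no gene (NTC, n = 6). The last experiment sets libraries labelled Pus10-KO (n = 3) against those labelled Pus10-WT (n = 3). Strain, age, the construct or allele and its promoter are not given in the sources used here. Nor do these sources say that replicates were different mice, so the p-values speak only of the spread among libraries, part of which may be technical.

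Integrin alphaIIb-beta3, made of the Itga2b and Itgb3 products, binds fibrinogen and von Willebrand factor when platelets aggregate. The Gp1ba product holds the binding site for von Willebrand factor in the glycoprotein Ib-IX-V complex, Gp1bb and Gp9 encode the small subunits needed to bring the complex to the surface, and Gp5 encodes a subunit associated with it. Gp6 encodes the platelet receptor for collagen, and Vwf is a large adhesive protein made by megakaryocytes and endothelial cells. In the HSC field, CD41 (the Itga2b product) and Vwf are also known as marks of stem cells with a bias to the platelet lineage and of older stem cells.

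Counts on genes ranged from 9.87 M (mega) to 47.3 M per library, deepest in Vector and PUS10-OE. Levels are counts per mega of counts on genes after TMM scaling (CPM), given as mean ± SD. All 13 markers of HSC identity had reads in every group, at summed levels of 896 to 2679 CPM per library. Markers of other blood cells were read beside them: the 13 neutrophil and monocyte markers summed to 431 to 581 CPM in the PUS10 experiment, 1106 to 4982 in the Pus10-KO experiment and 1804 to 21257 in the miR-139 experiment, and the 11 erythroid markers to 146 to 205, 310 to 5702 and 772 to 11921 CPM. In the miR-139 experiment both ranges were wide within each group and overlapped between the groups. In Vector, Lyz2 (458 CPM) and Prtn3 (67.2) led the neutrophil and monocyte sum, with Elane, S100a9, Ngp and Ly6c2 at 0. Tfrc (104 CPM) and Hbb-bt (33.9) led the erythroid sum there, with Hba-a2, Car1 and Ermap at 0. Lyz2 (703 CPM) and Prtn3 (661) led again in Pus10-WT. The libraries labelled Pus10-KO also held Elane at 669 ± 646 CPM, Mpo at 629 ± 604 and Ctsg at 252 ± 248. In Pus10-WT these genes were at 0.609 ± 0.949, 0.0418 ± 0.0362 and 0 CPM. The part of other blood cells in the levels given here was not tested. The targeted gene Pus10 was at 53.6, 92.8 and 81.5 CPM in Vector and at 285, 246 and 242 in PUS10-OE. It was at 19.6, 31.8 and 33.8 CPM in Pus10-WT and at 35.6, 33.7 and 36.3 in the libraries labelled Pus10-KO, so its level was not lower in the libraries with that label. Counts over a whole gene can include transcripts that a deletion leaves in place. The allele is not given, and why the level of Pus10 was not lower was not tested. The gene of miR-139 had 0 reads in all 24 libraries, and the level of the mature microRNA was not measured by these libraries, so the knockdown has no check here.

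The mature miR-139 sequences are shown because the labels name miR-139 as the target of the knockdown. Which arm or precursor it acts on is not given. The seed (bases 2 to 8), which pairs with target RNAs, is in capitals. Both lie on the plus strand of chromosome 7 (GRCm38, from RefSeq), at chr7:101475382-101475403 for the 5p arm and chr7:101475418-101475439 for the 3p arm.
mmu-miR-139-5p: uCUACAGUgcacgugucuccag
mmu-miR-139-3p: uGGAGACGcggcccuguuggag
The letters that pair with these seeds are ACTGTAG for the 5p arm and CGTCTCC for the 3p arm, and they were searched in the longest annotated 3' untranslated region of each gene. Of 21824 genes with such a region, 11.1% held at least 1 match for the 5p arm and 3.48% for the 3p arm. Among the 8 genes, Gp6 held 2 matches for the 5p arm and none for the 3p arm, and the other 7 genes held 0 matches for either. The first match in Gp6 is shown in capitals with its flanks.
Gp6 match: tatatcaatacACTGTAGctgttttcaga
A match describes letters only. Gp6 itself was all but unread in these cells, as described below.

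RefSeq promoter windows were matched for 6 of the 8 genes, with no entry for Itgb3 and Vwf, and 4 are shown, those of the genes with enough reads to be tested. Each is the 250 bases before the RefSeq start site (GRCm38.p6), read along the gene's strand. Capitals mark the searched letters on either strand: for GATA factors the letters AGATAA, or those with T first (TGATAA), or those ending in G instead (AGATAG, and with both changes TGATAG), and for ETS factors the letters CGGAAG or, with another first base, AGGAAG. Both families are known regulators of megakaryocyte genes. The windows are chr11:102469884-102470133 (minus strand) for Itga2b, chr11:70638872-70639121 (plus) for Gp1ba, chr6:87777820-87778069 (plus) for Gp9 and chr16:30310782-30311031 (minus) for Gp5. The RefSeq start of Itga2b lies inside the GENCODE gene model, whose own start is at chr11:102470122, so nearly all of its window lies within that model. Its matches, and the lack of a GATA match, say little about the bases before the GENCODE start.
Itga2b: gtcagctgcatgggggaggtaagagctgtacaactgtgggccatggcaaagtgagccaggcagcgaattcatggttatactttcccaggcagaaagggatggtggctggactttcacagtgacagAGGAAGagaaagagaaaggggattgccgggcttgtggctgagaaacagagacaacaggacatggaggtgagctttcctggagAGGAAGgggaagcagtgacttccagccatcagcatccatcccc
Gp1ba: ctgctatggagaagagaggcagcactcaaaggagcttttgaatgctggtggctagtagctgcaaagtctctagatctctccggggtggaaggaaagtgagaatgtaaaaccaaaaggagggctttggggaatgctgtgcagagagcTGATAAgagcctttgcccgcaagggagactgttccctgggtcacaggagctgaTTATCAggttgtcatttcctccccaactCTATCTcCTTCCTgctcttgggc
Gp9: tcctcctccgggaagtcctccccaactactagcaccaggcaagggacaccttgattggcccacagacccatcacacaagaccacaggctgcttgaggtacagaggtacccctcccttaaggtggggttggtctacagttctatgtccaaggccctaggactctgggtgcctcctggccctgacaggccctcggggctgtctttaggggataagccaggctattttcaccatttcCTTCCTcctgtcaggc
Gp5: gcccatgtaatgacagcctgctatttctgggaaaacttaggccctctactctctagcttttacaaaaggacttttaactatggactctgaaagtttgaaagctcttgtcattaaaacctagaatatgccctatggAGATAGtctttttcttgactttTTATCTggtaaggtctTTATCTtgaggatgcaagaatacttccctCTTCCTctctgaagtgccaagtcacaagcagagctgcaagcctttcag
Gp1ba and Gp5 each held 3 GATA matches and 1 ETS match. Itga2b held 2 ETS matches and Gp9 held 1, and neither held a GATA match of these letters. Of 32851 mouse promoter windows of the same length, 26.5% held a GATA match, 39.2% an ETS match and 9.21% both.

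The 8 genes lie on 4 chromosomes, in GRCm38 coordinates from GENCODE M21. Itga2b (ENSMUSG00000034664.13) is at chr11:102453297-102470122 on the minus strand with 28 merged exons. Itgb3 (ENSMUSG00000020689.4) is at chr11:104608000-104670476 on the plus strand with 16, and Gp1ba (ENSMUSG00000050675.7) at chr11:70639122-70642036 on the plus strand with 2. Gp9 (ENSMUSG00000030054.4) is at chr6:87778072-87779768 on the plus strand with 2 merged exons, and Vwf (ENSMUSG00000001930.17) at chr6:125546774-125686679 on the plus strand with 56. Gp5 (ENSMUSG00000047953.7) is at chr16:30307685-30310779 on the minus strand with 2, Gp1bb (ENSMUSG00000050761.4) at chr16:18620317-18622403 on the minus strand with 1, and Gp6 (ENSMUSG00000078810.4) at chr7:4363965-4397744 on the minus strand with 8.

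The gene model of Gp1bb left almost nothing to count. Of its 2087 exon bases, 1902 (91.1%) are also exon bases of Sept5, a septin gene on the same strand, and 867 belong to the overlapping gene Gm49601, which left 149 bases free of other genes. HTSeq in its default mode sets aside reads that fall on 2 genes, and the labels do not name the mode used. Gp1bb had 0 to 12 reads per library, with 33 reads over the 6 miR139-KD libraries and 5 over the 6 NTC libraries, and Sept5 had 43 reads over all 24 libraries. These counts are not a measure of how much Gp1bb RNA the cells held. None of the other 7 genes shared exon bases with another gene. Gp6 had 1 read in all, in a Vector library, and 0 in the other 23 libraries. At 0 reads in the 6 miR139-KD libraries, the smallest of which held 9.87 M counts, Gp6 was not detectable at this depth. Gp1bb and Gp6 passed the low-count filter in none of the 3 comparisons, and the other 6 genes passed it in all 3.

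The 6 measured genes stood at different levels, which are compared between genes only per kilobase of merged exon length. Gp9 had the highest mean in each of the 6 groups, from 27.7 ± 10.2 CPM per kilobase in NTC to 126 ± 52.3 in miR139-KD, and its libraries did not overlap those of the next gene except in NTC. Vwf was the lowest of the 6 in Vector, at 0.455 ± 0.224 CPM per kilobase, and in PUS10-OE, at 1.14 ± 0.574. In Pus10-WT Vwf ranked second to Gp9, at 9.68 ± 2.14 CPM per kilobase, with libraries that overlapped those of Itgb3 at 8.34 ± 1.23. Gp1ba was the lowest of the 6 in NTC, miR139-KD, Pus10-WT and the libraries labelled Pus10-KO, at 0.649 ± 0.320, 4.86 ± 3.55, 1.22 ± 1.42 and 1.78 ± 2.46 CPM per kilobase.

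Across the 6 groups, miR139-KD had the highest mean of Itga2b, Gp1ba, Gp9, Gp5 and Vwf, and the libraries labelled Pus10-KO had the highest mean of Itgb3. For Itga2b the order was miR139-KD (246 ± 65.9 CPM), NTC (64.5 ± 20.8), Pus10-WT (39.8 ± 12.2), Pus10-KO (31.4 ± 10.9), PUS10-OE (31.2 ± 9.81) and Vector (14.3 ± 5.03). The libraries of miR139-KD lay above and those of Vector below all others, and each of the 4 groups between them overlapped its neighbour. For Vwf the miR139-KD libraries (178 ± 61.5 CPM), Pus10-WT (156 ± 34.4) and Pus10-KO (151 ± 67.6) overlapped one another and lay above all libraries of NTC, PUS10-OE and Vector. The order of groups from different experiments cannot be told apart from differences between the experiments themselves, which were sequenced to different depths. The 3 control groups already differed: Vwf was at 7.31 ± 3.59 CPM in Vector, 21.3 ± 23.2 in NTC and 156 ± 34.4 in Pus10-WT.

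**Figure D1:**
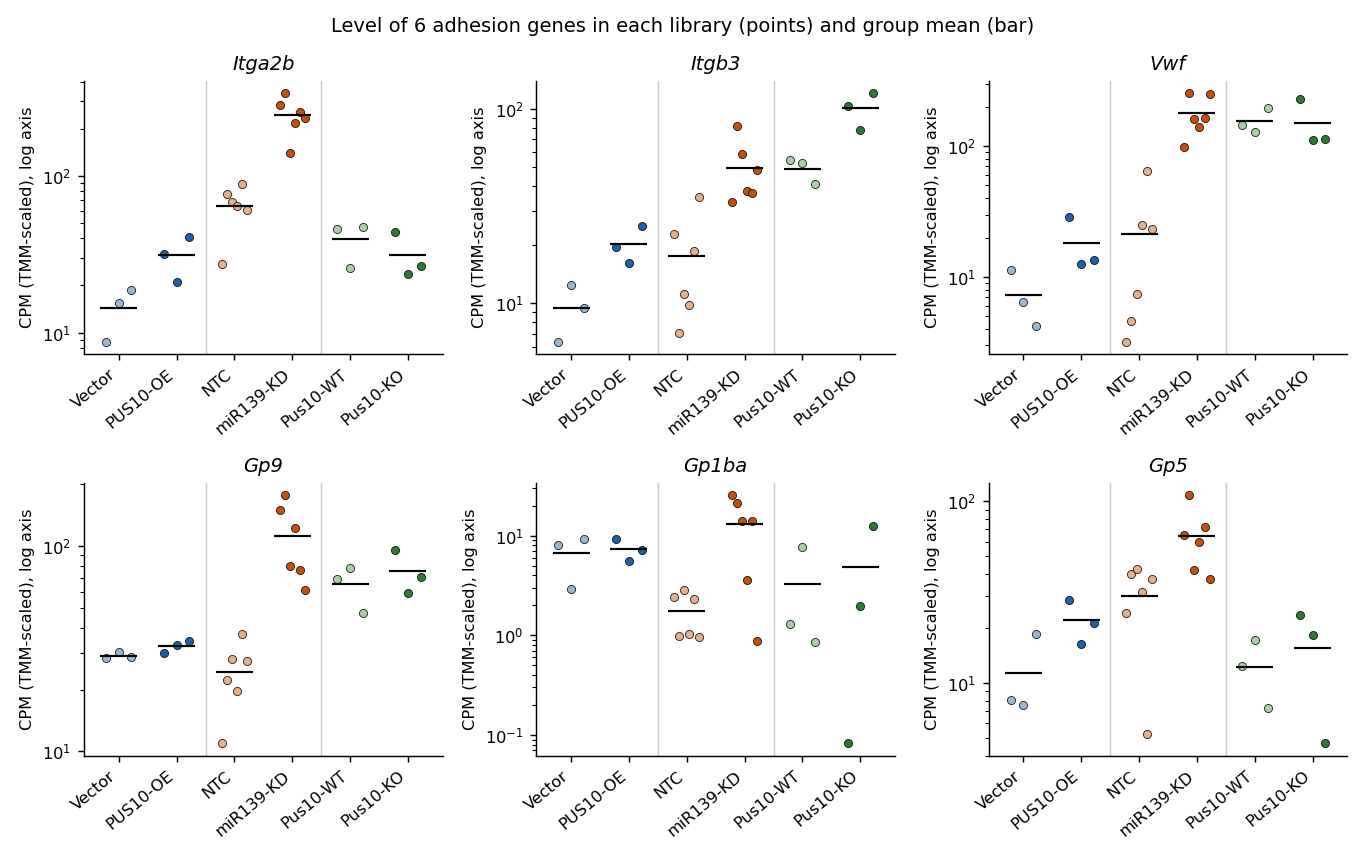
Level of 6 adhesion genes in each of 24 libraries, as TMM-scaled CPM on a log axis, by group; points are libraries, bars are group means and vertical lines separate the experiments. The 6 miR139-KD libraries sit above all 6 NTC libraries for Itga2b, Gp9 and Vwf, and the 3 libraries labelled Pus10-KO sit above the 3 Pus10-WT libraries for Itgb3.

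With PUS10 overexpression, Itga2b, Itgb3 and Vwf were each higher in all 3 PUS10-OE libraries than in all 3 Vector libraries, at 2.18, 2.14 and 2.51 times the Vector mean, but none of the 6 genes passed the test. Itga2b was at 8.74, 15.5 and 18.6 CPM in Vector and at 31.8, 21.0 and 40.6 in PUS10-OE (log2 fold change 1.13, SE 0.338, edgeR quasi-likelihood adjusted p = 0.449). The lowest PUS10-OE library stood just above the highest Vector library. Itgb3 was at 6.35, 12.4 and 9.52 CPM in Vector and at 19.5, 16.2 and 24.9 in PUS10-OE (1.10, SE 0.299, adjusted p = 0.400). Vwf was at 11.3, 6.43 and 4.24 CPM in Vector and at 28.95, 12.5 and 13.5 in PUS10-OE (1.32, SE 0.455, adjusted p = 0.501). For both genes the groups did not overlap, and for Vwf the highest Vector library and the lowest PUS10-OE library were close.

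Of the 3 measured glycoprotein Ib-IX-V genes, none separated PUS10-OE from Vector in all libraries. Gp9 was at 28.4, 30.3 and 28.97 CPM in Vector and at 30.0, 32.9 and 34.6 in PUS10-OE (log2 fold change 0.15, SE 0.145, edgeR adjusted p = 0.898), the tightest replicates of any member. Gp5 was at 8.09, 7.55 and 18.6 CPM in Vector and at 28.8, 16.3 and 21.4 in PUS10-OE (0.96, SE 0.394, adjusted p = 0.592), with 1 Vector library inside the range of PUS10-OE. Gp1ba was at 8.09, 2.91 and 9.38 CPM in Vector and at 9.33, 5.56 and 7.19 in PUS10-OE (0.12, SE 0.448, adjusted p = 0.991), and the groups overlapped.

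Counted over all genes, this comparison had 0 of 14834 called genes (0%) at an adjusted p under 0.05 by edgeR, 1215 (8.19%) at an unadjusted p under 0.05, 177 called by DESeq2 and 0 by limma-voom. Of the 6 genes tested, 0 were called by edgeR, DESeq2 or limma-voom, and 4 had an unadjusted p under 0.05. Non-overlapping groups with PUS10-OE higher were found for 3 of the 6, beside 8.31% of all genes tested. The median log2 fold change of the 6 was 1.03, against 0.006 over all genes tested. Members that passed the filter are not all members, since Gp1bb and Gp6 had too few reads. Some marker sums also separated these libraries. Multipotent progenitor markers summed to 1254 to 1301 CPM in Vector and 903 to 924 in PUS10-OE, and HSC identity markers to 1609 to 1670 and 1355 to 1452 CPM. Cd34, which is on both lists, had mean levels of 778 ± 15.8 CPM (Vector) and 549 ± 16.4 CPM (PUS10-OE). Its log2 fold change was -0.50 (edgeR adjusted p = 0.278), and both sums include this drop, so they are not separate shifts. Of the 13 HSC identity genes tested, 5 had a positive and 8 a negative log2 fold change, with a median of -0.07 and 0 called. Erythroid markers summed to 146 to 159 CPM in Vector and 164 to 205 in PUS10-OE. Sums of other platelet surface receptors separated too, at 1181 to 1232 CPM in Vector and 1347 to 1497 in PUS10-OE. Those of integrin activation and linkage genes were at 1618 to 1655 and 1678 to 1952 CPM. Whether these shifts had a part in the levels of the adhesion genes was not tested.

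With miR-139 knockdown, 5 of the 6 measured genes rose: Vwf 8.36-fold, Gp1ba 7.50-fold, Gp9 4.57-fold, Itga2b 3.80-fold and Itgb3 2.84-fold by group means. Gp5, at 2.13 times the NTC mean, did not pass the test. Of all 13295 genes tested, 361 (2.72%) were called, 187 (1.41%) of them higher and 174 (1.31%) lower. The median log2 fold change of the 6 genes was 2.06, against 0.017 over all genes tested. Since the genes were chosen with earlier results of these data known, this contrast is a description and not an independent test. In bulk RNA, more cells of a type and more RNA per cell cannot be told apart.

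Among the integrin genes, Itga2b was at 27.3, 77.0, 67.9, 64.7, 89.2 and 61.2 CPM in NTC and at 284, 337, 141, 220, 257 and 234 in miR139-KD. All 6 knockdown libraries were above all 6 control libraries, and NTC replicate 1 was the lowest control. The log2 fold change was 1.93 (SE 0.250, edgeR adjusted p = 0.00115). Itgb3, its partner subunit, was at 22.9, 7.05, 11.1, 9.82, 18.5 and 35.4 CPM in NTC and at 33.2, 82.1, 58.7, 37.7, 36.8 and 48.8 in miR139-KD. Here the highest NTC library, replicate 6, stood above the lowest knockdown library. The log2 fold change of Itgb3 was 1.504 (SE 0.375, edgeR adjusted p = 0.0471), close to the threshold. It stayed under 0.05 in 1 of the 12 fits that left out a library (without NTC replicate 6, adjusted p = 0.0139), and leaving out any of the other 11 libraries raised it to between 0.0539 and 0.101.

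Of the glycoprotein Ib-IX-V genes, Gp9 was at 10.9, 22.2, 28.2, 19.8, 37.4 and 27.6 CPM in NTC and at 150, 177, 80.3, 123, 76.8 and 61.0 in miR139-KD. The lowest knockdown library was well above the highest control (log2 fold change 2.19, SE 0.313, edgeR adjusted p = 0.00200). Gp1ba had few reads, 13 to 38 per NTC library and 10 to 264 per miR139-KD library. It was at 0.964 to 2.88 CPM in NTC and at 25.6, 21.3, 14.0, 3.57, 14.0 and 0.879 in miR139-KD (2.90, SE 0.708, adjusted p = 0.0422). Knockdown replicates 1 to 5 were above all controls, and replicate 6 was below all of them. The call for Gp1ba was kept in 2 of the 12 fits without a library, those without miR139-KD replicate 4 (adjusted p = 0.0359) or replicate 6 (0.0130), and leaving out any of the other 10 libraries raised it to between 0.0620 and 0.0964. DESeq2 kept it (0.000656) and limma-voom did not (0.172). Gp5 was at 24.2, 39.9, 42.5, 31.6, 5.28 and 37.4 CPM in NTC and at 64.9, 108, 41.9, 60.1, 72.1 and 37.5 in miR139-KD (1.09, SE 0.391, adjusted p = 0.172). The lower knockdown libraries lay among the controls, and NTC replicate 5 was far below the rest of its group. DESeq2 gave Gp5 an adjusted p of 0.0480.

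The ligand Vwf was at 3.20, 4.61, 7.35, 24.8, 64.5 and 23.3 CPM in NTC and at 99.0, 253, 162, 139, 165 and 250 in miR139-KD. No knockdown library came as low as the highest control, although the controls themselves spanned 20.2-fold from lowest to highest. The log2 fold change was 3.06 (SE 0.608, edgeR adjusted p = 0.0150). NTC replicate 5 was the highest control for Vwf and the lowest for Gp5. Without it the log2 fold change of Vwf was 3.81 (edgeR adjusted p = 0.00250). The call for Vwf held in all 12 fits that left out a library, and was lost without the low-count filter (adjusted p = 0.0701). Groups did not overlap, with miR139-KD higher, for Itga2b, Gp9 and Vwf, beside 1.65% of all genes tested.

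**Figure D2:**
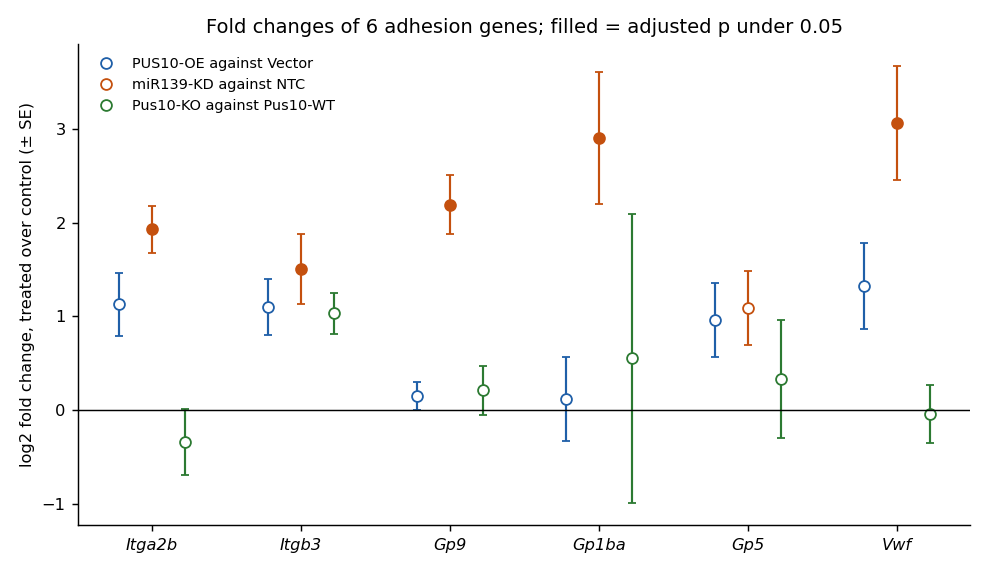
Log2 fold changes of 6 adhesion genes with their standard errors in the 3 comparisons, from edgeR; filled points have an adjusted p under 0.05 over all genes tested. The 5 filled points all belong to miR139-KD against NTC, where Vwf was at 3.06 and Gp1ba at 2.90, while the fold changes for Gp9 were 0.15 with PUS10-OE and 0.21 in the libraries labelled Pus10-KO.

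In the libraries labelled Pus10-KO, Itgb3 was at 2.04 times the Pus10-WT mean with groups that did not overlap, and Itga2b was at 0.790 times with groups that did; neither passed the test. Itgb3 was at 54.3, 52.5 and 40.9 CPM in Pus10-WT and at 104, 78.0 and 120 in Pus10-KO (log2 fold change 1.03, SE 0.219, edgeR adjusted p = 0.429, unadjusted p = 0.00174). DESeq2 called it (adjusted p = 0.00762), and the other alternatives did not. Itga2b was at 46.2, 25.7 and 47.3 CPM in Pus10-WT and at 43.8, 23.8 and 26.6 in Pus10-KO (-0.34, SE 0.351, adjusted p = 0.970).

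None of the other genes differed beyond the spread of these libraries. Gp9 was at 69.3, 78.2 and 47.4 CPM in Pus10-WT and at 95.7, 59.3 and 70.6 in Pus10-KO (log2 fold change 0.21, SE 0.261, edgeR adjusted p = 0.982). Vwf was at 144, 128 and 194 CPM in Pus10-WT and at 229, 111 and 113 in Pus10-KO (-0.04, SE 0.308, adjusted p = 0.999), and its sign changed with the scaling and with the libraries left out. In each of these genes 1 library labelled Pus10-KO stood above Pus10-WT and the other 2 lay within or below it. Gp5 was at 12.4, 17.3 and 7.29 CPM in Pus10-WT and at 23.6, 18.4 and 4.66 in Pus10-KO (0.33, SE 0.630, adjusted p = 0.999). Gp1ba was at 1.31, 7.76 and 0.849 CPM in Pus10-WT and at 0.0823, 1.96 and 12.5 in Pus10-KO, from 1 to 230 reads (0.55, SE 1.54, adjusted p = 0.999). Its replicates spread so widely that no direction could be read.

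Over all genes, edgeR called 9 of 14657 in this comparison (0.0614%), 2 of them higher (0.0136%) and 7 lower (0.0478%), and 1006 (6.86%) had an unadjusted p under 0.05. None of the 6 measured genes was called by edgeR or limma-voom, 1 had an unadjusted p under 0.05 and DESeq2 called 1. The single gene with Pus10-KO above Pus10-WT in all libraries, Itgb3, stands beside 6.86% of all genes tested. The median log2 fold change of the 6 was 0.27, against -0.003 over all genes tested. Here too some marker sums separated the groups. Platelet granule and cytoskeleton markers summed to 1596 to 1916 CPM in Pus10-WT and 1960 to 2264 in Pus10-KO, of which Srgn alone was at 1040 ± 75.6 and 1233 ± 61.1. Of the 9 tested, 7 had a positive and 2 a negative log2 fold change, with 0 called. Megakaryocyte transcription factors summed to 3136 to 3687 and 3746 to 3912 CPM, with 0 of 16 called. B cell markers, 1 of which was called lower, summed to 129 to 170 and 67.1 to 78.7 CPM. Neutrophil and monocyte sums overlapped, at 1106 to 1603 CPM in Pus10-WT and 1305 to 4982 in Pus10-KO. All 9 of these markers tested had a positive log2 fold change, with a median of 1.75 and 0 called. Erythroid sums overlapped too, at 310 to 1872 and 527 to 5702 CPM. Of the 11 erythroid markers tested, 8 had a positive and 3 a negative log2 fold change, with a median of 1.30 and 0 called. The part of any of these markers in the level of Itgb3 was not tested.

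Whether the effects differed between experiments was tested in a fit of all 6 groups over 17664 genes. Itga2b rose more with miR-139 knockdown than in the libraries labelled Pus10-KO, by 2.24 on the log2 scale (SE 0.456, edgeR adjusted p = 0.0337). It was the 1 gene of 6 that passed, beside 52 of all genes (0.294%), and limma-voom gave it an adjusted p of 0.0877. For Gp9 the same difference was 1.95 (SE 0.447, edgeR adjusted p = 0.0622), called by DESeq2 (0.00206) and limma-voom (0.0362). For Vwf it was 3.08 (SE 0.879, edgeR adjusted p = 0.193), called by limma-voom (0.00554). Between miR139-KD and PUS10-OE none of the 6 passed by edgeR, beside 0.051% of all genes. The nearest was Gp9, at 2.01 (SE 0.447, edgeR adjusted p = 0.0952), called by DESeq2 (0.00218) and limma-voom (0.0168). Between PUS10-OE and the libraries labelled Pus10-KO none of the 6 passed, beside 0.0226% of all genes. The difference for Itga2b was 1.46 (SE 0.521, edgeR adjusted p = 0.722). These 3 contrasts share their groups pairwise and are not independent.

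Ratios within a library show whether partners moved by unequal amounts. They were taken as log2 of CPM plus 0.5 and compared by a two-sided exact permutation test over 12 ratio tests, in which 3 libraries against 3 cannot give a p under 0.1. The ratio of Itga2b to Itgb3 was -0.23, -1.01 and 0.21 in Pus10-WT and -1.23, -1.69 and -2.15 in the libraries labelled Pus10-KO. The groups did not overlap, with a difference of -1.35 (exact permutation p = 0.1, adjusted p = 0.571). With miR-139 knockdown the same ratio was 1.97 ± 1.199 in NTC and 2.32 ± 0.64 in miR139-KD, a difference of 0.35 (exact permutation p = 0.548). With PUS10 overexpression it was 0.55 ± 0.33 in Vector and 0.58 ± 0.19 in PUS10-OE, a difference of 0.03 (exact permutation p = 0.9).

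The ratio of the ligand Vwf to its receptor subunit Itga2b was -2.91, -3.92, -3.12, -1.36, -0.47 and -1.37 in NTC and -1.52, -0.42, 0.20, -0.66, -0.63 and 0.09 in miR139-KD. The difference was 1.71 (exact permutation p = 0.0260, adjusted p = 0.312), and the groups overlapped through 3 of the NTC libraries. The ratio differed by 0.15 with PUS10 overexpression (exact permutation p = 1) and by 0.23 in the libraries labelled Pus10-KO (exact permutation p = 0.4). The 2 ratios planned with Gp1bb as the reference could not be computed from its reads, and Gp1ba and Gp5 were set against Gp9 in their place, chosen after the counts of Gp1bb were seen. The ratio of Gp1ba to Gp9 differed by 0.07, -0.02 and -0.25 in the PUS10-OE, miR139-KD and Pus10-KO comparisons, with exact permutation p of 0.9, 0.994 and 1. The ratio of Gp5 to Gp9 differed by 0.86, -0.93 and -0.08 in the same order (exact permutation p = 0.3, 0.143 and 1). None of the 12 ratio tests passed after adjustment.

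**Figure D3:**
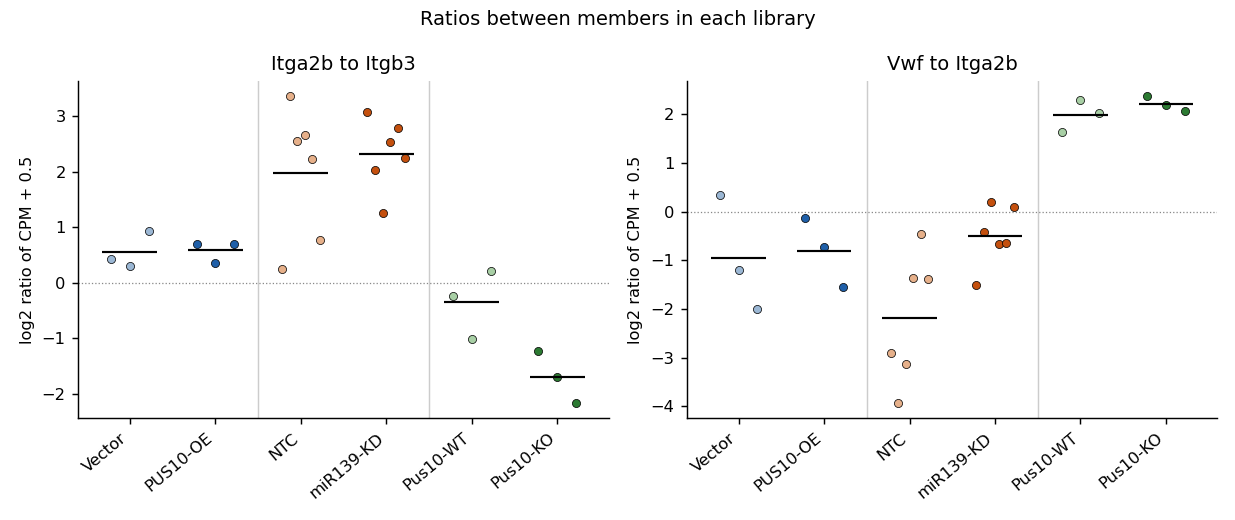
Log2 ratio of CPM + 0.5 of Itga2b to Itgb3 (left) and of Vwf to Itga2b (right) in each of 24 libraries, by group; points are libraries and bars are group means. The 3 libraries labelled Pus10-KO lie below the 3 Pus10-WT libraries for Itga2b to Itgb3, and 3 of the 6 NTC libraries lie below all miR139-KD libraries for Vwf to Itga2b.

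The genes that work with these receptors were read as lists by function. Over all genes tested with miR-139 knockdown, 1.41% were called higher and 1.31% lower, with a median log2 fold change of 0.017. These values stand beside each list count for that comparison below. Of 18 tested genes of integrin activation and linkage, 6 rose and 0 fell with miR-139 knockdown, with a median log2 fold change of 0.39. The 6 include Rap1b, a small GTPase that switches the integrin on, from 129 ± 14.5 to 334 ± 88.7 CPM (1.37, edgeR adjusted p = 0.000492). The others are the adaptors Lims1 (0.81) and Fyb (0.82), the integrin-binding Tln1 (0.51), the kinase Fyn (0.65) and the G protein subunit Gna13 (0.54). Of 12 tested genes for von Willebrand factor processing, storage and cleavage, 2 rose and 0 fell, with a median of 0.11. Rab27b, a GTPase of granule secretion, rose from 6.34 ± 3.24 to 50.8 ± 16.1 CPM (3.00, edgeR adjusted p = 0.00347), and Vamp8, a fusion protein of granules, rose from 538 ± 70.0 to 704 ± 28.3 CPM (0.39, adjusted p = 0.0276).

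Of 16 tested genes of GPVI and ITAM signalling 1 rose and 0 fell, with a median of 0.14: Clec1b, a receptor that signals through the same kinases, went from 0.638 ± 0.822 to 11.7 ± 4.53 CPM (log2 fold change 4.18, edgeR adjusted p = 0.0317). Of 8 tested genes that anchor glycoprotein Ib or signal from it, 0 were called by edgeR, with a median of 0.34. Flna, the filamin that ties the receptor to actin, was at 217 ± 37.6 CPM in NTC and 297 ± 40.2 in miR139-KD (0.45, adjusted p = 0.0697). Of 14 tested other platelet surface receptors, 2 rose, the tetraspanin Cd9 (1.38) and the laminin-binding integrin Itga6 (0.90), with a median of 0.99.

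Of 16 megakaryocyte transcription factors, 7 rose and 0 fell with knockdown, with a median log2 fold change of 0.45. Gata2 rose from 123 ± 30.0 to 289 ± 64.4 CPM (log2 fold change 1.23, edgeR adjusted p = 0.00226), and Fli1, an ETS factor, rose from 69.8 ± 15.0 to 126 ± 37.4 CPM (0.85, adjusted p = 0.0343). The others were Zfpm1 (0.93), Tal1 (0.88), Etv6 (0.74), Runx1 (0.68) and Gfi1b (0.66). Gata1, a factor of megakaryocyte and erythroid cells, was at 127 ± 52.2 CPM in NTC and 149 ± 34.1 in miR139-KD (0.23, adjusted p = 0.770). In the PUS10-OE and Pus10-KO comparisons 0 genes of any of these 6 lists were called by edgeR, and the largest list median in size was 0.24, for the transcription factors in the libraries labelled Pus10-KO.

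Markers of other cells moved with the same comparison, read beside the same shares of all genes, 1.41% called higher and 1.31% lower. Of 9 tested platelet granule and cytoskeleton genes, 4 rose with knockdown. The summed level of the 12-gene list was 820 to 1139 CPM in NTC and 1955 to 3285 in miR139-KD, led by Pf4, a platelet chemokine, at 68.5 ± 47.2 and 1356 ± 615 CPM. Multipotent progenitor markers fell, with 7 of 8 called lower and a summed level of 838 to 1621 CPM in NTC and 338 to 419 in miR139-KD. B cell markers had 4 of 10 called lower and a summed level of 1341 to 2839 CPM in NTC and 34.0 to 749 in miR139-KD, neither group free of them. Of 3 tested T and NK cell markers 1 fell, the kinase Lck, from 53.6 ± 7.25 to 6.14 ± 4.35 CPM (-3.12, edgeR adjusted p = 0.00226). Mast cell and basophil markers summed to 2040 CPM in miR139-KD replicate 6, the library with the lowest Gp1ba, and to 16.8 to 28.2 in the other 5 knockdown libraries. Of HSC identity genes 2 rose, Ctnnal1 (1.99) and Slamf1 (1.36), and 1 fell, Cd34 (-1.33), which is also on the progenitor list. The part of these shifts in the rise of the adhesion genes was not tested.

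Endothelial cells also make von Willebrand factor, so their markers were read beside it. The 12 endothelial markers summed to 150 to 227 CPM in NTC and 108 to 232 in miR139-KD, and the defining genes Cdh5, Cldn5 and Sox17 were at 0 in all 12 libraries. Of the 5 endothelial markers tested there, Egfl7 fell, from 125 ± 29.6 to 67.96 ± 14.7 CPM (log2 fold change -0.88, edgeR adjusted p = 0.0200). The receptor Tie1 was at 27.1 ± 12.3 CPM in NTC and 64.5 ± 25.6 in miR139-KD (1.25, edgeR adjusted p = 0.0704). Kdr, too low to be tested, was at 0.0371 ± 0.0908 CPM in NTC and 3.29 ± 2.56 in miR139-KD, with groups that did not overlap. The sum was 364 to 477 CPM in Pus10-WT and 321 to 381 in Pus10-KO, where Vwf was also high. In Pus10-WT it came mostly from Egfl7 (107 ± 7.94 CPM), Tie1 (98.0 ± 29.2), Emcn (60.0 ± 26.9) and Cldn5. In this experiment Cldn5 had reads, at 97.6 ± 80.8 CPM in Pus10-WT and 61.1 ± 49.2 in Pus10-KO. Cdh5 was at 0.0631 ± 0.109 CPM in Pus10-WT and at 0 in Pus10-KO, and Sox17 was at 0 in both groups. The sum was 125 to 144 CPM in Vector and 109 to 148 in PUS10-OE. The part of endothelial RNA in the level of Vwf was not tested.

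**Figure D4:**
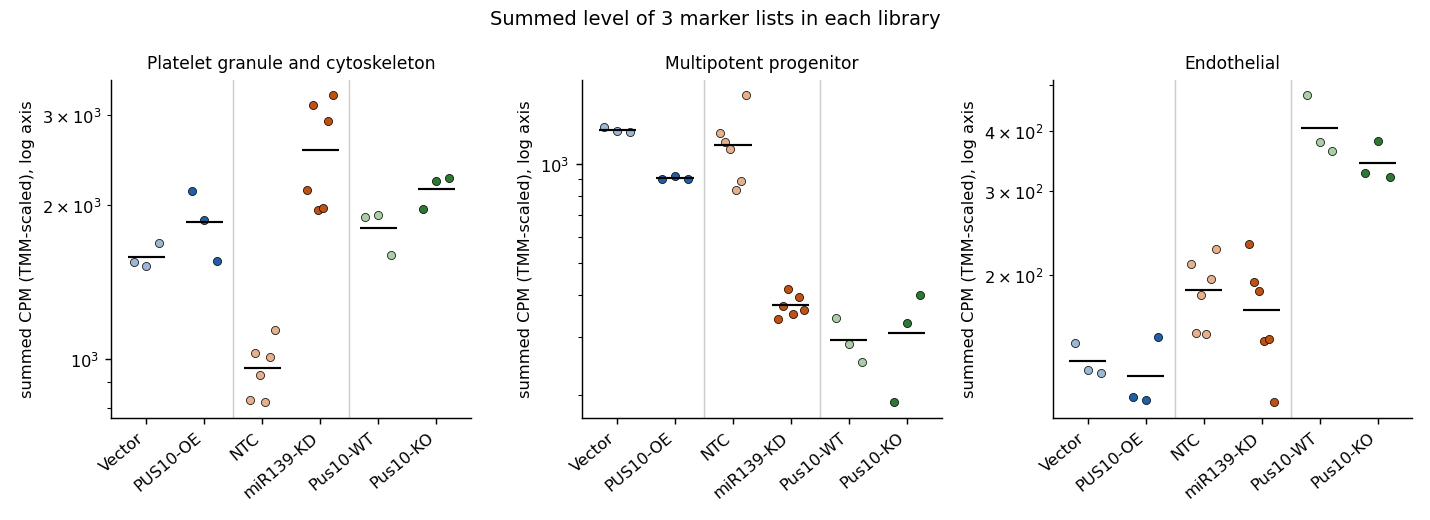
Summed level of 3 marker lists in each of 24 libraries, in TMM-scaled CPM on log axes, by group; points are libraries and bars are group means. Platelet granule genes are higher and multipotent progenitor genes lower in all 6 miR139-KD libraries than in all 6 NTC libraries, while the endothelial sums of these groups overlap at 150 to 227 and 108 to 232 CPM.

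Within groups, after each group's mean log2 CPM was removed, the adhesion genes did not vary as 1 unit across the 24 libraries. These correlations describe the libraries, which share depth and composition, and carry no test. The highest Pearson r among the 15 pairs was 0.55 (Spearman rho 0.50), between Itga2b and Gp9. Itga2b and Itgb3, which form 1 receptor, had r = -0.05 over all libraries, with 0.85 in the 6 libraries of the PUS10 experiment, -0.27 in the 12 of the miR-139 experiment and 0.01 in the 6 of the Pus10-KO experiment. Vwf and Gp5 had r = -0.36 but a Spearman rho of -0.12, with r of -0.18, -0.52 and 0.28 in the same 3 experiments. NTC replicate 5, the highest control for Vwf and the lowest for Gp5, is among the libraries of the miR-139 experiment.

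Among 9193 genes with a mean log2 CPM of at least 3, those whose residuals were most like Itga2b over the 24 libraries were Plbd2 (r = 0.74), Casc3 (0.73), Vps16 (0.69), Pheta2 (0.69) and Txn1 (0.68). Those most like Vwf were Pear1 (0.87), Isoc2b (0.85), Ehd3 (0.75), Ncoa2 (0.74) and Gtf2ird2 (0.74). The lists share no gene, and none of the 8 adhesion genes was eligible for them.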

How the data were processed

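Libraries were made from sorted HSCs by Smart-seq2, per the labels' protocols, which does not mark strand and adds no molecular identifiers. The deposited values were raw read counts per gene for 55487 gene IDs. The submitters' processing notes name HISAT2 2.1.0, HTSeq 0.11.2, DESeq2 and the build mm10, but no annotation release. GENCODE M21 gave 55394 IDs a symbol. The 5 summary entries per file stayed out of library sizes: reads on no gene were 3.70% to 12.0% and ambiguous reads 6.53% to 20.1% of the deposited counts. Each of the 42 within-group pairs differed by more than counting noise (chi-square over its degrees of freedom at least 30.1).

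The 2 groups of a comparison were fitted alone with edgeR 4.0.16 under R 4.3.3 (filterByExpr, TMM, quasi-likelihood F test, two-sided). A call is a p under 0.05 after Benjamini-Hochberg adjustment across the whole table. Standard errors were obtained by dividing the log2 fold change by the root of F. Alternatives were DESeq2 1.42.0 on the genes kept by filterByExpr, limma-voom (limma 3.58.1), other scalings and filters, 1 fit of all groups, the replicate block and left-out libraries. The fits were also run on simulated counts. Changes were placed there only in genes above a set level, so that run says nothing about genes with few reads such as Gp1ba.

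The members and gene lists were chosen with earlier results of these data known. The members were always named, with up to 3 genes of each other list by lowest p in the miR-139 comparison. Other called list genes (Tln1, Fyn, Gna13, Fli1, Tal1, Runx1, Gfi1b), Gata1 and Kdr were named after their values were seen. The 5 genes most like Itga2b and Vwf had the highest Pearson r of log2 CPM (prior count 2) after group means were removed.

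Of 4 planned ratios, the 2 to Gp1bb could not be computed. Ratios of Gp1ba and Gp5 to Gp9 took their place and are in the adjustment over 12 tests.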

Additional observations from a re-analysis of the deposited data

Results flagged for a closer look

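The 20 groups of 6 libraries were the CPM of 6 genes and 4 ratios in NTC and miR139-KD. A library was flagged if its gap from the rest was large relative to the range of the group. For normally distributed values, chance marks about 1 in 20 groups. Gene levels were read as CPM without logs, so that share may not hold for them. Of the 20 groups, 2 held a flagged library, and both times it was NTC replicate 5. Its Vwf level was 64.5 CPM, with the next highest at 24.8 (gap over range 0.647, critical value 0.625). Its log2 ratio of Gp5 to Gp9 was -2.71, with the next lowest at 0.43 (gap over range 0.822).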

How the results depend on the processing

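In the miR-139 comparison Itga2b and Gp9 stayed called in all 12 fits that left out a library and under all 9 other alternatives, and Vwf in 12 and in 8 of 9. Itgb3 stayed called in 1 of 12 and 8 of 9, and Gp1ba in 2 of 12 and 4 of 8. The count of called members there (5) was 6 by DESeq2, 4 by limma-voom, with a filter of 10 CPM and in the fit of all groups, 3 without a low-count filter and 3 with the replicate block, and 3 to 4 without 1 library. Called genes over the whole table (361) were 797 by DESeq2, 792 in the fit of all groups, 188 with the replicate block and 196 to 340 without 1 library. For PUS10-OE, 0 called genes became 177 by DESeq2, 12 with a filter of 10 CPM and 5 in the fit of all groups. For Pus10-KO, 0 called members became 1 by DESeq2, and 9 called genes became 146 by DESeq2, 3 by limma-voom, 14 with a filter of 10 CPM, 15 in the fit of all groups, 2 with the replicate block and 0 to 10 without 1 library. Members whose effects differed numbered 1 by DESeq2 and 1 by limma-voom for miR139-KD against PUS10-OE (0 by edgeR), and 2 by each for miR139-KD against Pus10-KO (1 by edgeR). No pairing by replicate number was seen. Same-numbered libraries correlated at -0.087 to 0.008 after group means were removed, and no treated library correlated best with its own number. With so few libraries per group, this cannot show that pairing was absent. Changes of sign were seen only among values that missed the threshold in edgeR. Without 1 library, Gp1ba with PUS10-OE (0.12) ran from -0.25 (Vector replicate 2 left out; -0.09 with PUS10-OE replicate 1 left out) to 0.42. For Pus10-KO, Gp1ba (0.55) became -0.32 by limma-voom and -1.06 with the replicate block, and ran from -1.68 (Pus10-KO replicate 3 left out) to 2.16, and Gp5 (0.33) ran from -0.098 (Pus10-KO replicate 1 left out) to 0.77. Vwf (-0.04) became 0.023 with library size only and ran from -0.47 to 0.15 (also 0.14 and 0.13; Pus10-WT replicate 3, Pus10-KO replicate 2 or 3 left out). The difference between the PUS10-OE and Pus10-KO effects became -0.047 for Itgb3 with library size only and 0.75 for Gp1ba by limma-voom. Ratios without 1 library ran, with PUS10-OE, from -0.096 to 0.22 for Itga2b to Itgb3, from -0.38 to 0.80 for Vwf to Itga2b and from -0.43 to 0.37 for Gp1ba to Gp9. With miR-139 knockdown Gp1ba to Gp9 (-0.02) ran from -0.23 to 0.38, and was 0.16 with a pseudocount of 0.1 CPM. For Pus10-KO it (-0.25) ran from -1.43 to 1.03, and Gp5 to Gp9 (-0.08) ran from -0.49 to 0.57. The cause of these changes was not tested.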
